A study of Homo sapiens with 24 samples.

Results

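The genes described here encode the proteasome, the protease complex that degrades ubiquitin-tagged proteins. They were chosen by name, as protein-coding genes whose symbol begins with PSMA, PSMB, PSMC, PSMD, PSME, PSMF, or PSMG followed by a digit. The rule finds 50 genes among 19756 protein-coding genes on chromosomes 1 to 22 and X. Of these, 48 encode subunits, regulators, or assembly factors of the proteasome. The other 2 only share the letters: PSMC3IP encodes a factor of meiotic recombination, and PSME3IP1 encodes a protein that interacts with the regulator PSME3. They were kept in every count of 50.

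Binding of S100A8 and S100A9, small calcium-binding proteins best known as secreted proinflammatory factors, was measured by ChIP-seq in MCF-10A–ER-Src cells. This is a line of nontransformed human breast epithelial cells that carries v-Src fused to the ligand-binding domain of the estrogen receptor, and 4-hydroxytamoxifen switches the oncoprotein on. All cells used here also carried a C-terminally Flag-tagged S100A8 or S100A9 gene from the retroviral vector pLHCX, so that tagged protein made from the vector was measured, by a Flag antibody. Cells received 1 μM 4-hydroxytamoxifen (TAM) or the vehicle ethanol (EtOH) for 24 hours. Among the 11 libraries, EtOH-treated S100A8-Flag cells have 2 replicates, and the other groups (TAM-treated S100A8-Flag cells and S100A9-Flag cells under either treatment) have 3 apiece. The labels call them biological replicates. No expression values and no library of cells without a tagged protein were analyzed here.

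A gene was called in a library when a peak with a q value of at most 1e-07 had its summit, the position of highest signal, near a transcription start site (TSS) of one of its protein-coding transcripts, in a window that reached 1500 bp upstream of the TSS and 250 bp into the gene. A gene was called bound in a condition when at least 2 replicates called it. Their summits did not have to lie at the same site or TSS. Fold enrichment is the height of a peak over the input chromatin of the same sample, as the authors' peak caller gave it. The libraries differ in the length of their lists, which hold from 1853 to 4609 peaks at this q value in EtOH and from 21518 to 40735 in TAM. Read depth is not given, so that sequencing depth, tagged protein level, and occupancy cannot be told apart as sources of that difference.

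The proteasome consists of a barrel-shaped core particle and caps that feed it. The core has outer rings of alpha subunits (PSMA genes), which gate the entrance, and inner rings of beta subunits (PSMB genes), some of which carry the proteolytic sites. The regulatory cap has a ring of ATPases (PSMC genes), which unfold substrates, and non-ATPase subunits (PSMD genes), which recognize and deubiquitinate them. PSME gene products are alternative caps, PSMF1 was first described as an inhibitor, and PSMG products assemble the core. Proteasome genes are expressed in nearly every cell and are known to be induced together by the transcription factor NFE2L1 when proteasome activity falls.

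Genomic DNA around peak summits is shown for 7 of these promoters, to give the DNA behind the peaks described next. PSMB3, PSMD3, PSMD7, PSMD9, and PSMF1 are among the genes called in the most libraries, PSMC4 was called in every TAM and no EtOH library, and PSMB9 stands for the interferon-induced subunits. Each is the longest stretch, up to 100 bases, that lies within 100 bp of the summit of the gene's highest-ranked peak and outside every exon in GENCODE, which lists no nuclear tRNA genes. The sequences are from GRCh37 (hg19), written 5′ to 3′ on the strand of the gene, and capitals mark exact matches to the motifs described at the end.
PSMB3 (chr17:36908062-36908161, plus strand): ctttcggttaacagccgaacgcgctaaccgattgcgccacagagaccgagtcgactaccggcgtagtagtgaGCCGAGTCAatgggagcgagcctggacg
PSMB9 (chr6:32821839-32821924, plus strand): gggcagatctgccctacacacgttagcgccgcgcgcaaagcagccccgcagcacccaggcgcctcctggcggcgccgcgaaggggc
PSMC4 (chr19:40476781-40476880, plus strand): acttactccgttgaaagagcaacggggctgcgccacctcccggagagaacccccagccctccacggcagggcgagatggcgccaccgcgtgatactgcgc
PSMD3 (chr17:38136960-38137059, plus strand): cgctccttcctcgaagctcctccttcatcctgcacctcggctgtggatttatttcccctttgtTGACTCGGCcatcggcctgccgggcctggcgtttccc
PSMD7 (chr16:74330661-74330711, plus strand): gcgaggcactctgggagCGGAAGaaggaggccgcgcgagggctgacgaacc
PSMD9 (chr12:122326550-122326612, plus strand): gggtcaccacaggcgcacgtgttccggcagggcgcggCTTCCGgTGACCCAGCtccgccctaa
PSMF1 (chr20:1099137-1099236, plus strand): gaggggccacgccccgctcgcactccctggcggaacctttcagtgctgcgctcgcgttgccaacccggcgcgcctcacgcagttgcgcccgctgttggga
The stretches at PSMC4, PSMF1, and PSMB9 hold none of the letters searched, those at PSMD3 and PSMB3 hold the antioxidant response element, that at PSMD7 an ETS motif, and that at PSMD9 both, side by side. The full windows of 100 bp on either side of the summit hold more. They add ETS and KLF/SP1 letters at PSMF1, KLF/SP1 at PSMB9, YY1 at PSMB3, and AP-1 at PSMD9.

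In EtOH, 8 to 12 of the 50 genes were called per library. The S100A8 libraries called 9 and 8, and the S100A9 libraries called 9, 8, and 12. In TAM, the S100A8 libraries called 38, 32, and 26, and the S100A9 libraries called 35, 35, and 41. These are 18.4 ± 3.29% of the genes in EtOH (SD, n = 5) and 69.0 ± 10.3% in TAM (SD, n = 6), and no EtOH library reached the lowest TAM library. Over all protein-coding genes, 10.2 ± 2.50% were called in EtOH and 39.1 ± 5.43% in TAM. Proteasome genes were thus called 1.31 to 2.68 times as often as all genes in the EtOH libraries and 1.56 to 1.90 times in the TAM libraries. The 86 genes picked by symbol as cytosolic ribosomal protein genes were called at similar rates, 19.1 ± 3.33% in EtOH and 72.3 ± 8.85% in TAM. The symbol pattern also admits ribosomal-protein-like paralogs, and 4 of the 86 were called in no library (38.7% of all genes).

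**Figure D1:**
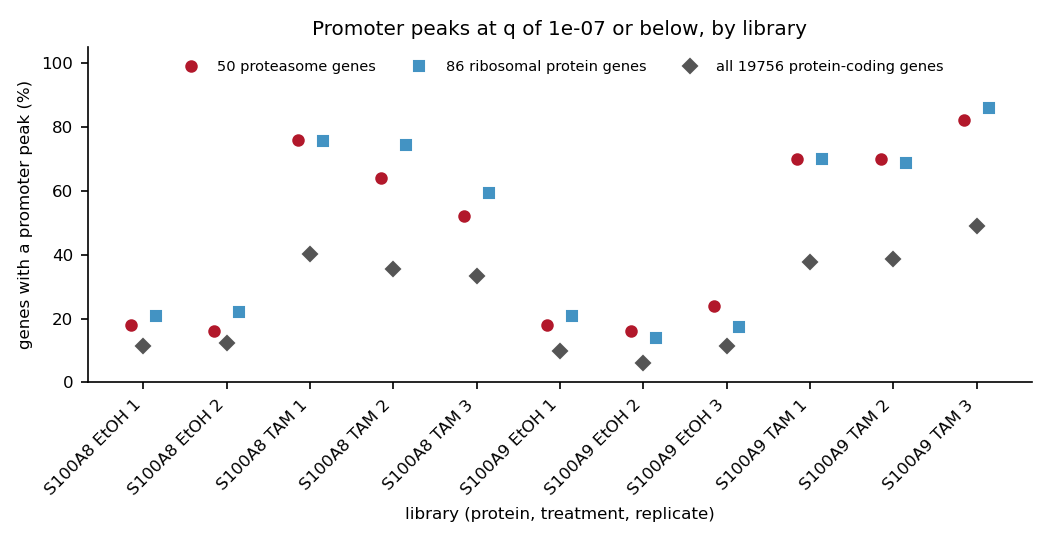
Percent of genes with a promoter peak at q ≤ 1e-07 (y axis) in each of the 11 libraries (x axis) for the 50 proteasome genes (circles), 86 ribosomal protein genes (squares), and all 19756 protein-coding genes (diamonds). Proteasome genes lie above all genes in every library, between 16.0 and 24.0% in EtOH and between 52.0 and 82.0% in TAM.

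The difference between treatments depends on how many peaks a list holds. Averaged over both proteins, proteasome genes were called 50.8 percentage points more often in TAM at a fixed q value. When the 1853 highest-ranked peaks by q value were taken from every library, the difference was −1.33 percentage points, with 2 to 8 of the 50 genes called in each EtOH library (5.35 to 5.98% of all genes) and 3 to 8 in each TAM library (4.19 to 5.22% of all genes). The share of proteasome genes was 0.704 to 3.06 times that of all genes, and below it in 1 library, S100A8 EtOH replicate 2. At that list length 24 proteasome genes were called in at least 1 library, led by PSMD9 with 7 libraries and PSMA1 with 5. Among the genes called, fold enrichment was close to that of other called promoters. The median over proteasome genes was 8.5 ± 0.223 in EtOH (SD, n = 5) and 8.63 ± 1.08 in TAM (SD, n = 6), and over all called genes it was 8.37 ± 0.176 and 8.56 ± 0.392.

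Proteasome promoters that an EtOH library did not call were split about evenly between those with a weaker peak and those with none. Over the 250 pairs of gene and EtOH library, 46 were called, 100 had a promoter peak that the list holds at a weaker q value, down to 0.05, and 104 had none. Over the 300 pairs in TAM, 207 were called, 69 had a weaker peak, and 24 had none. With peaks of every q value counted, 21 to 32 of the genes had a promoter peak in each EtOH library (22.2 to 39.3% of all genes) and 44 to 48 in each TAM library (53.2 to 64.5% of all genes). Near the threshold of 7 on the −log10 q scale, PSMA2 in S100A9 TAM replicate 2 (7.02) and PSME4 in S100A8 TAM replicate 2 (7.04) lay just inside, and PSMA5 in S100A9 TAM replicate 2 (6.95) and PSMC4 in S100A8 EtOH replicate 2 (6.92) lay just outside.

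By condition, S100A8 was bound to 3 of the 50 genes in EtOH (4.62% of all genes) and to 33 in TAM (36.8% of all genes). S100A9 was bound to 7 in EtOH (5.71% of all genes) and to 41 in TAM (43.1% of all genes). The TAM counts are 66.0 and 82.0% of the proteasome genes. Without S100A8 TAM replicate 1, which called the most genes of its group, the count of 33 was 19, and without S100A9 TAM replicate 3 the count of 41 was 25. Without S100A9 EtOH replicate 1 or replicate 3, the count of 7 was 3. S100A8 in EtOH has 2 replicates, so that both had to call a gene.

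Among alpha subunits, 5 of 7 genes were bound by S100A8 (36.8% of all genes) and 5 by S100A9 (43.1% of all genes) in TAM. In EtOH, 1 was bound by each protein (4.62 and 5.71% of all genes). That gene is PSMA1, called in all 11 libraries, the only proteasome gene of which this is true and one of 0.491% of all genes. Its fold enrichment was 13.2 and 7.79 in the S100A8 EtOH libraries and 13.5, 10.3, and 6.12 in the S100A9 EtOH libraries. It was 8.44, 7.88, and 4.39 in the S100A8 TAM libraries and 5.06, 15.1, and 11.2 in the S100A9 TAM libraries. The treatments overlap throughout this range. Called in 3 to 5 libraries each were PSMA2, PSMA3, PSMA4, PSMA5, PSMA6, and PSMA7. PSMA7 had only 2 calls in TAM and 1 in EtOH.

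All 7 beta subunit genes were bound by S100A9 in TAM (43.1% of all genes) and 4 of them by S100A8 (36.8% of all genes). PSMB3, which encodes a beta subunit without a proteolytic site, was called in 10 libraries. Its fold enrichment was 8.65 and 7.18 for S100A8 and 7.56, 8.27, and 7.24 for S100A9 in EtOH. In TAM it was 6.78 and 7.39 for S100A8 in replicates 1 and 2, with a peak too weak to be called in replicate 3 (−log10 q of 5.10), and 11.2, 11.8, and 20.4 for S100A9. The S100A9 TAM libraries thus lay above all others at this gene. In 8 of its 10 libraries the summit lay −906 to −850 bp from the TSS, over the stretch shown above. It lay at −136 bp in S100A8 TAM replicate 1 and at −181 bp in S100A8 EtOH replicate 2. In the RefSeq annotation (GRCh38.p14), the next gene upstream of PSMB3 is the asparagine tRNA gene TRN-GTT2-5. The annotation used for hg19 lists no nuclear tRNA genes, so that these 8 summits were not placed against it. Whether they, and with them the calls of PSMB3 in both treatments, belong to PSMB3 or to the tRNA gene was not tested. Of the genes for the proteolytic beta subunits, PSMB6 was called in 6 libraries, PSMB7 in 4, and PSMB5 in 3, of which 5, 3, and 3 are TAM libraries.

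As a group, the inducible and tissue-restricted core subunits were called least, in 36.7% of their 30 pairs of gene and TAM library. This is close to the mean of 39.1% of all genes called per TAM library. The tissue-restricted PSMA8 and PSMB11, which had no call, lower the share of the group, and its 11 TAM calls were all at PSMB8, PSMB9, and PSMB10. PSMB8, PSMB9, and PSMB10 replace the constitutive proteolytic subunits in the immunoproteasome, which interferon induces. PSMB9 was called in all 6 TAM libraries, with a fold enrichment of 7.79, 6.57, and 6.19 for S100A8 and 9.78, 14.3, and 10.2 for S100A9, and in 1 EtOH library (8.28, S100A9 replicate 2). These values are not all from one site. The peak of 7.79 lies at −302 bp from an upstream TSS of PSMB9 beside PSMB8, and the other 5 TAM peaks lie at a downstream TSS. There, S100A8 TAM replicate 1 had called peaks of 7.06 at −1227 bp and 5.94 at −427 bp. Each S100A8 TAM library thus had a summit at −450 to −427 bp from the downstream TSS. The S100A9 TAM libraries had their highest summits at −93, −30, and −48 bp, and replicates 2 and 3 also had called peaks at −451 and −438 bp. PSMB9 is read outward from a region that it shares with TAP1, the gene of the peptide transporter for antigen presentation, and both windows held its top summit. PSMB10 was called in 3 TAM libraries (11.1 in S100A8 replicate 3, 6.20 and 7.13 in S100A9 replicates 1 and 3). PSMB8 was called in 2 (7.79 in S100A8 replicate 1 and 8.40 in S100A9 replicate 2), and both summits also lie in the window of the upstream TSS of PSMB9. PSMA8, the alpha subunit of male germ cells, and PSMB11, the beta subunit of the thymic cortex, had no promoter peak of any strength in any library. They are the 2 of 50 proteasome genes that no library called, against 38.7% of all genes.

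Core assembly chaperones were called in 91.7% of their 24 pairs of gene and TAM library and in 25% of 20 pairs in EtOH. Over all genes, 39.1% were called per TAM library and 10.2% per EtOH library on average. Differences between subcomplexes, which hold few genes each, were not tested. PSMG1, PSMG2, PSMG3, and PSMG4, which together build the alpha ring, were each bound by both proteins in TAM (31.5% of all genes). For PSMG2 and S100A8, the highest called peaks of TAM replicates 1 and 3 lay at separate TSSs, 44106 bp apart. PSMG1 was bound by S100A9 in EtOH, with a fold enrichment of 8.96 and 13.3 in replicates 1 and 2, and in TAM it was 8.39, 6.77, and 11.1 for S100A8 and 15.7, 7.16, and 13 for S100A9. These ranges overlap. PSMG4 was called in every TAM library, with 7.88, 6.42, and 6.88 for S100A8 and 7.94, 11.3, and 10.2 for S100A9, and in no EtOH library. It had weaker peaks in all 5 EtOH libraries, with a −log10 q of 5.43 and 6.44 for S100A8 and 6.07, 5.81, and 2.33 for S100A9.

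Of the 6 ATPase genes, all were bound by S100A9 (43.1% of all genes) and 4 by S100A8 (36.8% of all genes) in TAM. PSMC4 was called in every TAM library, with 12.4, 13.5, and 11.4 for S100A8 and 8.57, 10.2, and 9.74 for S100A9, and here the S100A8 values lie above the S100A9 values. No EtOH library called it, and 2 of these held a weaker peak, with a −log10 q of 6.92 and 6.29. PSMC4 and PSMG4 are the only 2 proteasome genes called in all TAM and no EtOH libraries, which is 4.00% of the 50, against 2.84% of all genes. PSMC2 was the ATPase gene bound in EtOH, by S100A9, with 8.42 and 11.3 in replicates 1 and 3. In TAM it had 17 and 5.12 for S100A8 in replicates 1 and 2 and 15.1 and 11 for S100A9 in replicates 1 and 2. Its divergent neighbor DNAJC2, a ribosome-associated cochaperone, has a TSS 12 bp from its top summit, nearer than the 72 bp to that of PSMC2.

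Non-ATPase subunits formed the largest group. In TAM, 10 of 11 were bound by S100A9 (43.1% of all genes) and 8 by S100A8 (36.8% of all genes). PSMD3, a subunit of the lid that carries the deubiquitinase, was called in 9 libraries. Its fold enrichment was 6.22 and 11.2 for S100A8 and 10.8 for S100A9 replicate 1 in EtOH, and 12, 7.39, and 7.41 for S100A8 and 10.4, 11.9, and 5.33 for S100A9 in TAM, with overlap. PSMD6, a further lid subunit, had its highest values in TAM, with 12.8, 15.1, and 14 for S100A8 and 10.1, 16.3, and 11.8 for S100A9, and was called in 1 EtOH library at 8.29. PSMD7, the partner of the deubiquitinase PSMD14, was called in 8 libraries, with 8.08 in S100A8 EtOH replicate 2 and 8.25 in S100A9 EtOH replicate 3, and 7.34, 6.31, and 9.17 for S100A8 and 6.76, 10.6, and 7.93 for S100A9 in TAM. PSMD11, another lid subunit, was bound by S100A9 in EtOH (9.99 and 8.19 in replicates 2 and 3). In TAM it had 10.3 and 15.4 in S100A8 replicates 1 and 3 and 8.88, 11.3, and 11.3 for S100A9. PSMD14 itself was called in 5 TAM and no EtOH libraries. PSMD4, a receptor for ubiquitin chains, was the member of this group that neither protein bound, with 2 calls in TAM.

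The chaperones of the regulatory cap differed from each other. PSMD9 was called in 9 libraries and PSMD10, known as gankyrin, in 1 (S100A9 TAM replicate 3). PSMD9 had 9.32 in S100A8 EtOH replicate 2 and 9.87 and 10.6 in S100A9 EtOH replicates 1 and 3. In TAM it had 18.7, 14.8, and 10.7 for S100A8 and 5.23, 24.4, and 5.83 for S100A9, so that the S100A9 TAM libraries hold both the lowest values and the highest. The value of 24.4 was its highest-ranked peak. PSMD5 was called in 4 libraries, 3 of them in TAM.

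Among activators and inhibitors, PSMF1 was called in 8 libraries. Its fold enrichment was 6.38 and 8.57 in S100A9 EtOH replicates 1 and 3, and 7.34, 15.9, and 11.7 for S100A8 and 13, 21.7, and 18.4 for S100A9 in TAM. The 3 S100A9 TAM values lie above both S100A9 EtOH values. PSME1 and PSME2, the interferon-induced subunits of one activator cap, were called in no EtOH library and in 4 and 5 TAM libraries. PSME1 had 10.6 in S100A8 replicate 1 and 6.98, 7.88, and 6.93 for S100A9. PSME2 had 8.68 and 7.45 in S100A8 replicates 1 and 3 and 6.76, 9.52, and 6.51 for S100A9, and its top summit lay nearer to the TSS of RNF31, a subunit of the linear ubiquitin ligase. PSME3, the nuclear activator, was called in 5 libraries and PSME4, an activator known for its role on chromatin in male germ cells, in 4.

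**Figure D2:**
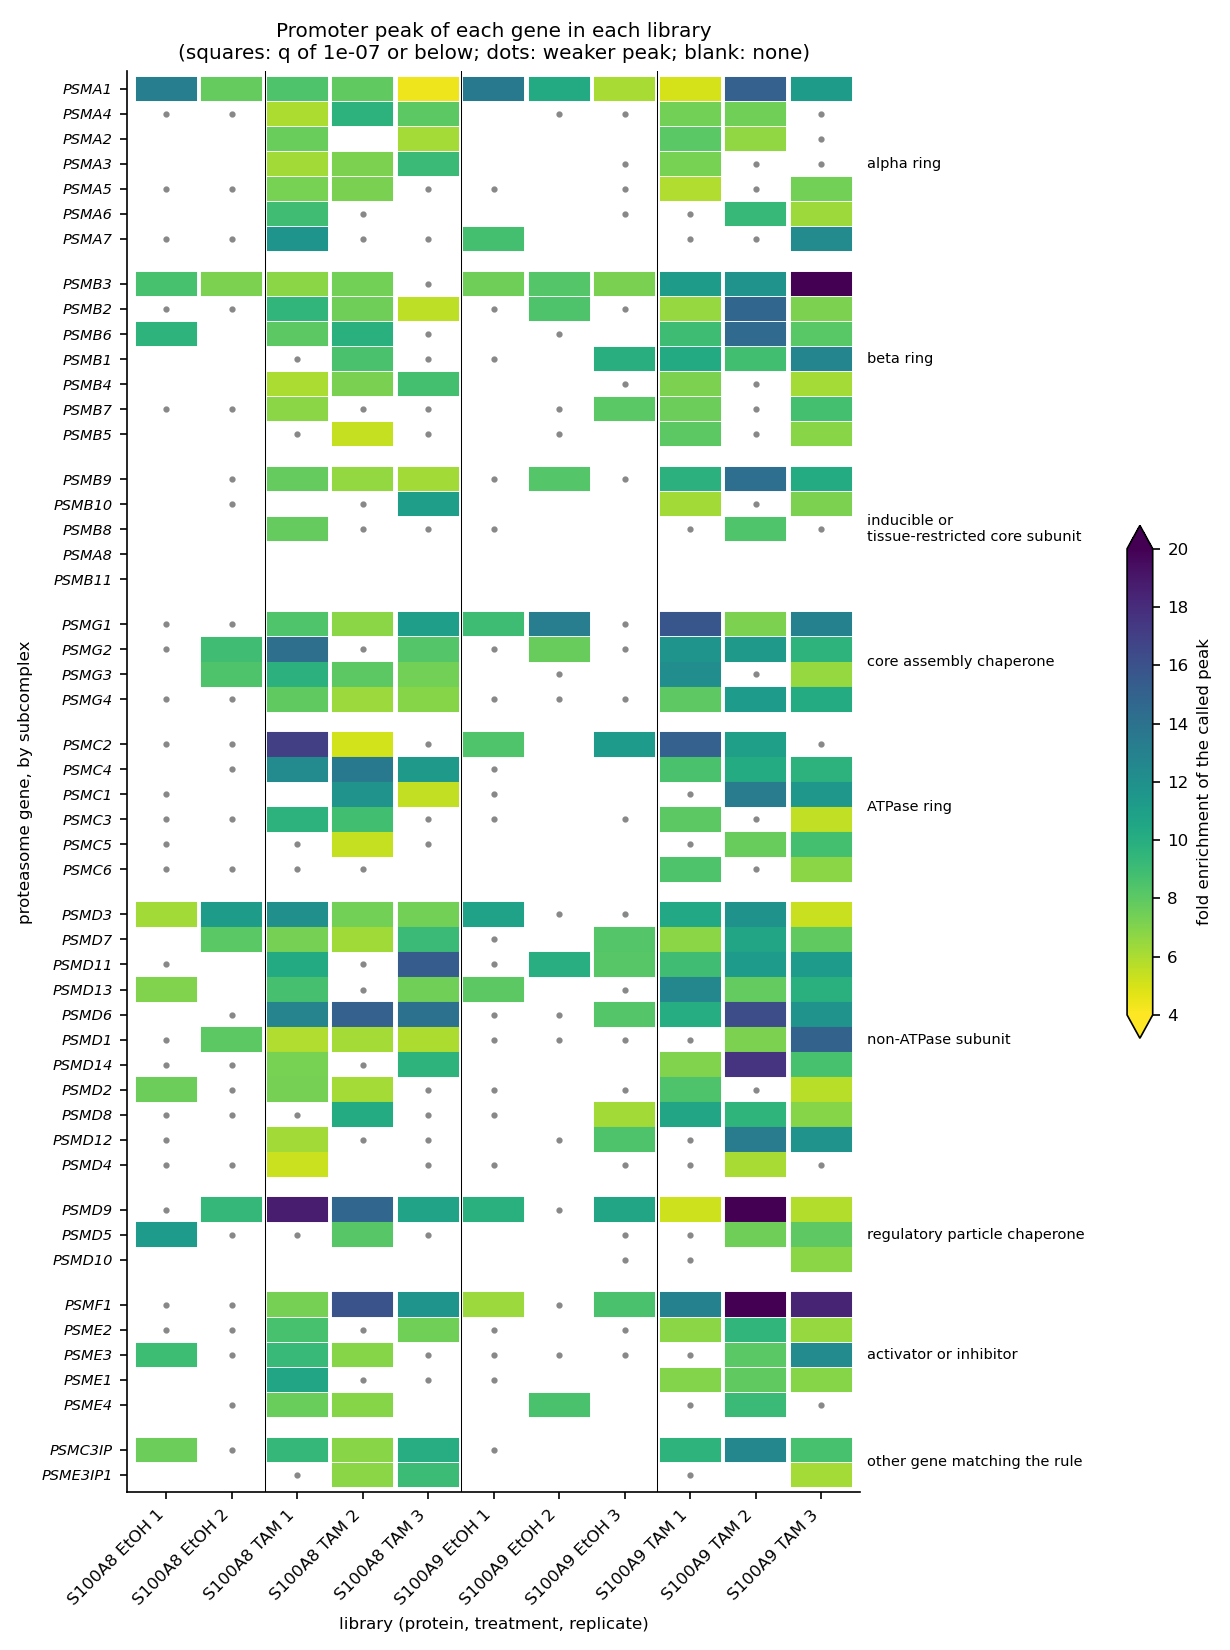
Promoter peaks of the 50 proteasome genes (y axis, by subcomplex) in the 11 libraries (x axis). A filled square is a call, colored by fold enrichment, a dot is a peak weaker than the threshold, and a blank is no peak in the deposited list. PSMA1 is filled in all 11 columns, and PSMA8 and PSMB11 are blank in all.

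The treatments were compared gene by gene with an exact permutation test (two-sided) of the share of libraries that called the gene, with labels exchanged within each protein. There are 200 arrangements, so that the smallest p is 0.01. Of the 50 proteasome genes, 47 were called in at least 2 libraries and tested. PSMA8, PSMB11, and PSMD10 were not. Among those tested, 45 were called in a larger share of TAM libraries (95.6% of all genes tested), 1 in a larger share of EtOH libraries (1.67% of all genes tested), and PSMA1 in equal shares. The exception is PSMB3, with 5 of 5 EtOH and 5 of 6 TAM libraries. Most of its calls rest on the upstream summits described above, which were not placed against the tRNA gene. No proteasome gene, and no gene among 10647 tested, passed an adjusted p of 0.05 in this exact permutation test with Benjamini-Hochberg adjustment, for which the smallest adjusted p was 0.19. With so few arrangements, a gene can pass only if a large share of all genes reach the smallest p. Over all genes, 561 had calls in 6 of 6 TAM and 0 of 5 EtOH libraries. The absence of passing genes therefore does not show that calls were alike between treatments. At an unadjusted p under 0.05, 10 proteasome genes were called more in TAM (20.9% of all genes tested). These are PSMA4, PSMB2, PSMB4, PSMB9, PSMC3IP, PSMC4, PSMD14, PSMD6, PSME2, and PSMG4. Without any 1 library, where fewer arrangements exist, 2 to 4 proteasome genes had such a p, and with lists of equal length 0 did. PSMC4 and PSMG4 reached the smallest exact permutation p of 0.01 (adjusted p = 0.19), with 6 of 6 TAM and 0 of 5 EtOH libraries.

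In all, 12 proteasome genes were called in every TAM library (13.9% of all genes). They are PSMA1, PSMB2, PSMB9, PSMC3IP, PSMC4, PSMD3, PSMD6, PSMD7, PSMD9, PSMF1, PSMG1, and PSMG4, and include each subcomplex. In EtOH, 8 genes were bound by at least 1 protein (8.47% of all genes), namely, PSMA1, PSMB3, PSMC2, PSMD3, PSMD9, PSMD11, PSMF1, and PSMG1. PSMA1 and PSMB3 were bound by both proteins in EtOH (2 of 50, against 1.87% of all genes). All 3 genes bound by S100A8 and all 7 bound by S100A9 in EtOH were also bound by that protein in TAM, as were 93.0 and 95.8% of all genes bound in EtOH. The median proteasome gene was called in 5 libraries, and the median gene overall in 2.

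S100A8 and S100A9 were bound to largely overlapping sets of proteasome genes. In TAM, 30 genes were bound by both (31.5% of all genes), which is 90.9% of those bound by S100A8 and 73.2% of those bound by S100A9. Over all genes the same shares were 85.6 and 73.1%. S100A8 alone was bound to PSMA3, PSME4, and PSME3IP1, and S100A9 alone to 11 genes, including PSMB1, PSMB5, PSMB7, PSMC5, PSMC6, PSMD8, and PSMD12. At each of them, the proteins differ by 1 or 2 TAM libraries. No proteasome gene differed between the proteins at an unadjusted p under 0.05 in the exact permutation test (0.131% of all genes tested, 14 genes), and no gene passed an adjusted p of 0.05. This test also has 200 arrangements, with the same limit. The largest differences in share were at PSMB1, PSMD8, and PSMD11, each 0.5 in favor of S100A9, with exact permutation p of 0.24, 0.24, and 0.30 (adjusted p = 1), and the largest in favor of S100A8 was 0.417, at PSMD1 and PSMG3 (exact permutation p = 0.4, adjusted p = 1). PSMB1 was called in 4 of 6 S100A9 libraries and 1 of 5 S100A8 libraries, with 10.3, 8.87, and 12.7 in S100A9 TAM. PSMB1 had 8.62 in S100A8 TAM replicate 2 and 9.93 in S100A9 EtOH replicate 3. These values are not all from one site. The summits in S100A8 and S100A9 TAM replicate 2 lay at −1061 and −1009 bp, and the others at −44 to 9 bp. The neighboring gene TBP has a TSS 951 bp from the top summit of PSMB1. PSMD8, a lid subunit, had 10.2 in S100A8 TAM replicate 2, 6.21 in S100A9 EtOH replicate 3, and 10.6, 9.57, and 6.92 in S100A9 TAM. PSMD1, a scaffold subunit of the cap, was called in 4 of 5 S100A8 libraries (8.06 in EtOH replicate 2 and 5.93, 6.16, and 5.98 in TAM) and 2 of 6 S100A9 libraries (7.13 and 15 in TAM replicates 2 and 3). PSMG3 had 8.49 in S100A8 EtOH replicate 2, 9.75, 8, and 7.42 in S100A8 TAM, and 12.2 and 6.54 in S100A9 TAM replicates 1 and 3.

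Peaks at proteasome promoters lay close to the TSS. The median summit of a gene lay at a median of −46.5 bp (interquartile range −104 to −10.5 bp) over the 48 genes called, with 40 genes upstream of the TSS and 33 within 100 bp. Over all 12103 called genes the median was −65.5 bp, and 57.9% lay within 100 bp, as against 68.8% of proteasome genes. PSMB3 (−876 bp), PSMC3IP (−754 bp), and PSME2 (−680 bp) lay farthest upstream, and PSMB10 lay farthest downstream, at 174 bp. PSMC4 had its summit between −299 and −241 bp in 5 of 6 libraries and at −48 bp in the other. PSMA1 had all 11 summits between −29 and 18 bp, and PSMG4 had all 6 between −30 and −4 bp. Distances are from the nearest TSS, and at PSMB9, PSME3, and PSMG2 the summits of different libraries lay at separate TSSs, up to 9637, 9051, and 44106 bp apart. Calls at separate TSSs counted toward the same gene, as for PSME3 in S100A9 TAM replicates 2 and 3. The summits of both proteins in TAM lay a median of 57.5 bp apart at 46 proteasome genes and 59.0 bp apart over all genes.

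**Figure D3:**
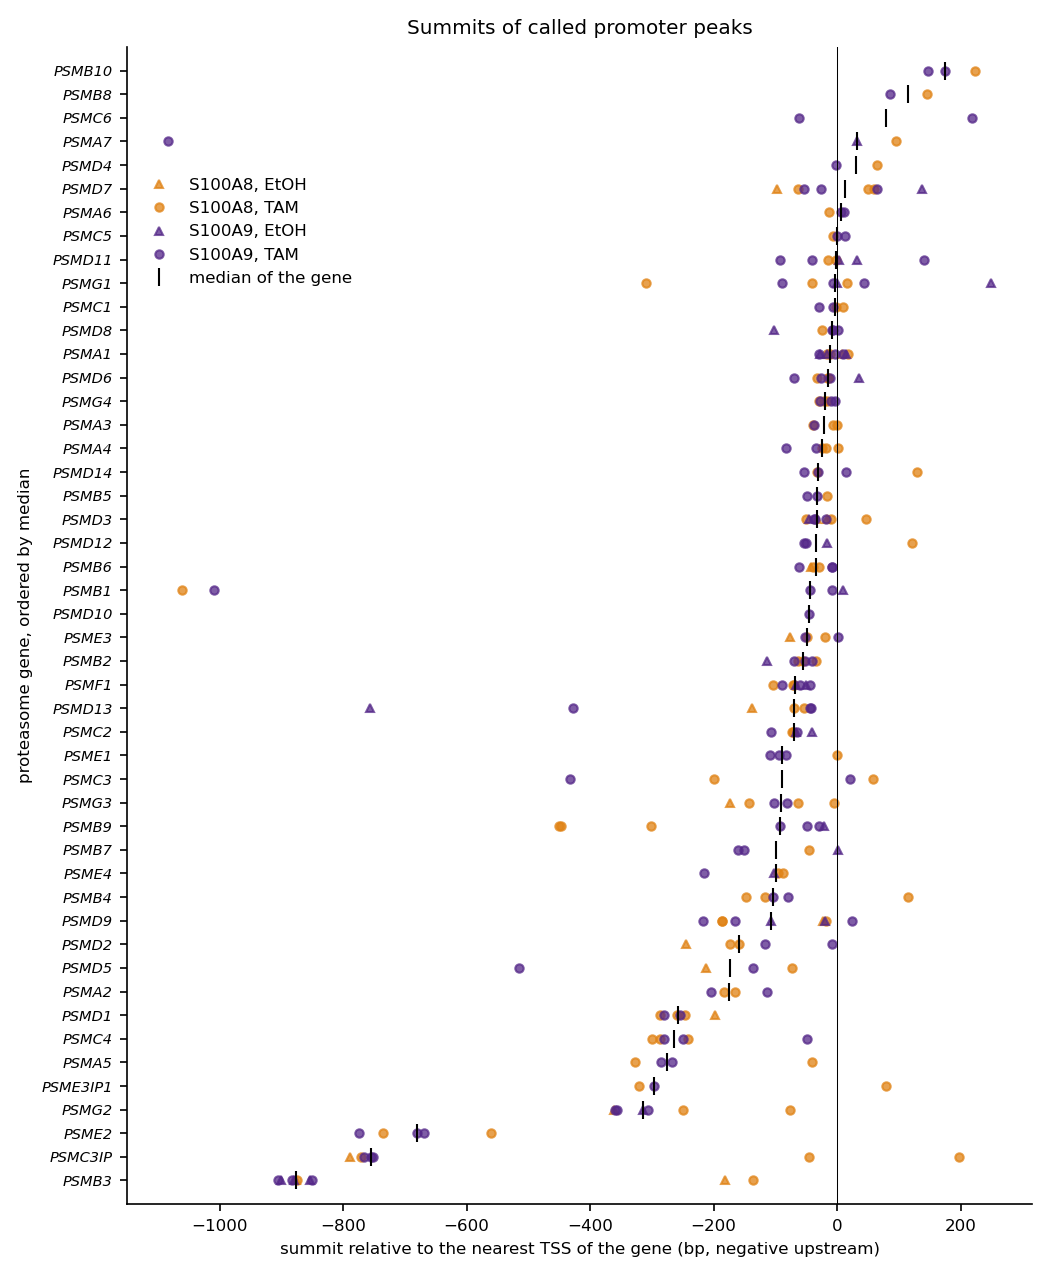
Summits of called promoter peaks (x axis, bp from the nearest TSS of the gene, negative upstream) at the 48 proteasome genes with a call (y axis, ordered by the median, which a black bar marks). Colors show the protein and shapes the treatment. Most genes cluster within 100 bp of the TSS, and PSMB3 has the median farthest upstream, at −876 bp.

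Some proteasome genes lie head to head with another gene, and a peak between them cannot be given to either one. The share of such genes among all called genes was not computed, and only top summits were compared with neighbors. At 13 of the 48 genes the top summit also lay in the promoter window of another protein-coding gene, and at 7 it was nearer to the other gene's TSS. These 7 are PSMA2 (beside the mitochondrial ribosomal protein gene MRPL32), PSMA7 (SS18L1), PSMC2 (DNAJC2), PSME2 (RNF31), PSME4 (ACYP2), PSMG2 (CEP76), and PSME3IP1 (RSPRY1), and all but PSMA7 are among the 13. The top summit of PSMA7 lay at −1083 bp, far from its other summits at 32 and 95 bp. PSMD13 shares its region with SIRT3, a mitochondrial deacetylase, PSME3 with BECN1, an autophagy gene, PSMB1 with TBP, the TATA-binding protein gene, PSMD10 with ATG4A, an autophagy protease gene, and PSMC5 with FTSJ3, a ribosome assembly gene.

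Motif matches near the summit were counted for the top summit of each of the 48 genes, within 100 bp on either side and on both strands, beside 10834 top summits of all called genes. The ETS motif, searched as CGGAAG, was found at 22 of 48 proteasome genes (45.8%) and at 26% of all. The antioxidant response element, searched as TGACNNNGC and known as the site of NFE2L1 and NFE2L2, was found at 11 (22.9%) and at 11.3% of all. These are PSMA4, PSMB3, PSMB6, PSMB10, PSMC3, PSMC5, PSMD3, PSMD9, PSMD12, PSME1, and PSMG2. KLF/SP1 letters (CCCCGCCC) were found at 11 (22.9%; 24.3% of all), NFY letters (CCAAT) at 10 (20.8%; 20.7%), and YY1 letters (ATGGCGG) at 4 (8.33%; 7.33%). The AP-1 letters (TGANTCA) were found at 2, PSMC5 and PSMD9 (4.17%; 6.96%), both of which also hold the antioxidant response element. The first letters of that element can overlap those of AP-1. At PSMD9 the stretch shown above holds the element (TGACCCAGC) without AP-1 letters, and overlap at PSMC5 was not examined. CREB letters (TGACGTCA) were at none of the 48 and at 2.44% of all. With 50 bp on either side the ETS motif was at 20.8% of proteasome genes and 16.5% of all, and with 200 bp at 64.6 and 36.2%. The antioxidant response element was at 10.4% of proteasome genes and 6.11% of all with 50 bp, and at 29.2 and 19.3% with 200 bp. A match is only a match of letters, base composition was not adjusted for (median G + C of 63.5% at proteasome genes and 67.2% at all), and no motif was tested.

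**Figure D4:**
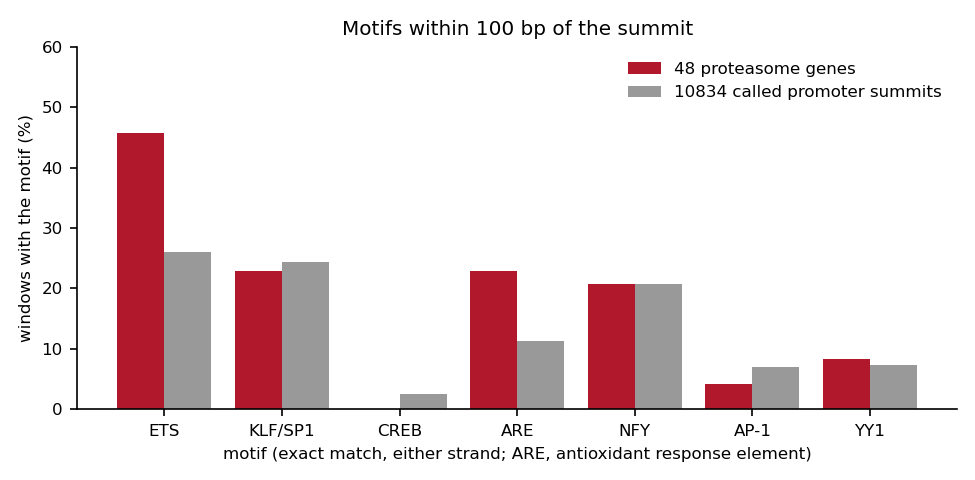
Percent of windows of 100 bp on either side of the top summit that hold each motif (y axis) for the 48 proteasome genes and for 10834 called promoters. ETS (45.8 and 26%) and the antioxidant response element (22.9 and 11.3%) are higher at proteasome genes, and the other motifs differ by less than 3 percentage points.

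Of 22 further genes tied to the proteasome but named otherwise, 20 were bound by each protein in TAM, and 5 by each protein in EtOH. Over all genes, S100A8 was bound to 36.8% in TAM and 4.62% in EtOH, and S100A9 to 43.1 and 5.71%. RPS27A, which encodes ubiquitin fused to a ribosomal protein, is also among the ribosomal genes above. The 22 genes were called in 31.8 ± 10.2% of cases in EtOH (SD, n = 5) and in 87.9 ± 5.52% in TAM (SD, n = 6). UCHL5, the deubiquitinase docked on the cap, was called in all 11 libraries (0.491% of all genes). ADRM1, the ubiquitin receptor to which it docks, and NFE2L2, the regulator of the oxidative stress response, were called in 10 (1.35% of all genes). POMP, a maturation factor of the core, was called in 9. NFE2L1 was called in 6 libraries, 5 of them in TAM. UBQLN2, a shuttle factor for ubiquitin-tagged proteins, was called in 2. In the exact permutation test of treatments, none of the 22 passed an adjusted p of 0.05. At an unadjusted p under 0.05, 7 were called more in TAM (20.9% of all genes tested).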

How the data were processed

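Peak lists of 11 Flag ChIP-seq libraries were used. Per the labels, the authors used Bowtie2, MACS2, and hg19. Their versions are not given in the sources used here. The authors ran MACS2 for narrow peaks separately for every replicate, with the input of that replicate as control. The deposited lists give fold enrichment (a ratio to input) at the summit, −log10 p-value and −log10 q-value, a peak score derived from the latter, and the summit offset. The p-values and scores were not used. The weakest peaks listed have a q-value near 0.05. Read numbers are absent, so that depth is unknown, counting intervals cannot be given, and lower depth and weaker binding cannot be told apart behind a shorter list.

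Here, peaks with a −log10 q-value of at least 7 on chromosomes 1 to 22 and X were assigned by summit to TSSs of protein-coding transcripts in GENCODE 44 (GRCh37 lift), whereas the study used refGene. A summit could call several genes. Groups were taken from the labels. Members, lists, and motifs were chosen with earlier results of these data known. The rule for library values names the genes called in the most libraries, those bound in EtOH, the interferon-induced and tissue-restricted ones, those with no peak, and those with the largest differences between proteins. Values of PSMC4 and PSMG4 were added after their calls were seen. Calls were compared per gene by exact permutation within protein or treatment, two-sided by doubling the smaller tail, for genes called in at least 2 libraries, with Benjamini-Hochberg adjustment over all of them. The permutation test was tested on simulated data. Where a gene had several called peaks in a library, that of highest fold enrichment was used. The top summit of a gene is that of its highest percentile of fold enrichment among the peaks called in a library. Python 3.11.15, numpy 2.4.6, pandas 2.3.3, and matplotlib 3.10.9 were used. The alternatives tried are described in the closing section. Values of some genes tied to the proteasome are not reported here.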

Additional observations from a re-analysis of the deposited data

How the results depend on the processing

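With every deposited peak, S100A8 and S100A9 were bound to 25 and 27 proteasome genes in EtOH, and the difference between treatments was 32.8 percentage points. At q ≤ 1e-10, S100A8 was bound to 0 in EtOH and 18 in TAM and S100A9 to 2 in EtOH. With the 1853 top peaks of every library, S100A8 was bound to 0 and 2 in EtOH and TAM and S100A9 to 4 and 3, and the difference was −1.33 percentage points. With the 5′ end of each gene as its only TSS, S100A9 was bound to 4 in EtOH and 25 in TAM, and the difference was 35.8. At 14 genes, PSMA1 included, the top summit lay outside the window of that 5′ end. Counting a peak in at least 1 replicate gave 14 (S100A8) and 20 (S100A9) in EtOH, and in every replicate 17 (S100A8 TAM), 2 (S100A9 EtOH), and 22 (S100A9 TAM). With 50 and 200 bp around the summit, the ETS motif was found at 20.8 and 64.6% of genes, the antioxidant response element at 10.4 and 29.2%, NFY letters at 10.4 and 43.8% (10.4 and 35.9% of all called promoters), and YY1 letters at 2.08 and 20.8% (3.54 and 12.1%).

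Leaving out each library in turn gave 19 to 25 genes for S100A8 TAM, 3 to 5 for S100A9 EtOH, and 25 to 31 for S100A9 TAM, and a difference of 47.8 to 53.8 percentage points. S100A8 in EtOH then has 1 replicate and no value. Leaving out a replicate, the other q-values, windows, and gene sets left 0 genes past an adjusted p of 0.05 in both comparisons (exact permutation), with 0 to 11 proteasome genes at an unadjusted p under 0.05 between treatments and 0 between proteins. No pairing by replicate number was detected (r of deviations between −0.0162 and 0.0117 over 5 pairs of EtOH and TAM libraries). These values cannot show whether libraries with the same number were prepared together. With the replicate block, the difference was 54.0 percentage points and 0 genes passed, which was fixed by the design, since 5 pairs allow 32 arrangements and no exact permutation p below 0.0625. The summit position moved by less than the spread between libraries (38.8 bp) in each alternative.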
